A study of Rattus norvegicus with 9 samples.

Results

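Chemokines are small secreted proteins that draw leukocytes along a gradient, and the CC family is named for a pair of adjacent cysteines near the start of the mature protein. Of a set of 6 chemokine genes, 5 were examined: Ccl2, Ccl5, Ccl7 and Ccl20 of the CC family, and Cx3cl1, which encodes fractalkine, the CX3C chemokine. They were taken by gene symbol from the 17588 genes of the deposited table, which gives their gene IDs as 24770 for Ccl2, 81780 for Ccl5, 287561 for Ccl7, 29538 for Ccl20 and 89808 for Cx3cl1. The remaining listed gene, Ccl11, was not analysed here. Of the 5 genes, 4 had at least 1 FPKM in at least 3 of the 9 libraries and were tested, and Ccl5 did not reach that level.

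The libraries are from rat primary chondrocytes, wild type by label, with 3 libraries in each of 3 groups. The first group was stimulated with interleukin-1β (IL-1β, an inflammatory cytokine) and then grown across a transwell membrane from dermal fibroblasts, which lay in the other chamber. The second group received IL-1β without fibroblasts, and the third was an untreated control in routine culture. Co-culture without IL-1β was not among the groups, the labels give no age, sex or strain, and nothing in them says that replicates were separate animals or cultures, so p-values reflect only how far these libraries differ, and that spread may be technical. Values are FPKM, a fragment count divided by gene length and by library total, so levels of different genes can be compared. FPKM summed to between 809839 and 811665 in co-culture libraries, 796262 and 832248 in IL-1β libraries, and 771058 and 782435 in control libraries. The absolute depth is unknown. The 9 chondrocyte markers in the table (Col2a1, Acan, Sox9 and others) were all above the filter in these cells. They summed to between 619 and 675 FPKM in co-culture libraries, 439 and 459 FPKM in IL-1β libraries, and 1904 and 1988 FPKM in control libraries.

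In joints, chondrocytes and synovial cells release chemokines when stimulated by IL-1β, largely through the transcription factor NF-κB. Ccl2 (monocyte chemoattractant protein 1) and Ccl7 (monocyte chemoattractant protein 3) attract monocytes through the receptor Ccr2. Ccl20 attracts Ccr6-bearing cells such as Th17 lymphocytes and immature dendritic cells, and Ccl5 (RANTES) attracts T cells and monocytes. Fractalkine is made as a membrane protein that tethers Cx3cr1-bearing leukocytes, and the proteases Adam10 and Adam17 cut it free.

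Promoter windows are shown because the 4 tested genes moved in the same directions. RefSeq windows of 300 bases on the GRCr8 build, from 250 bases before to 50 after the annotated start, matched Ccl7, Ccl20 and Cx3cl1, and not Ccl2, Ccl5 or Ccl11. Capitals mark matches to 3 motifs searched on both strands: the NF-κB consensus, the AP-1 consensus TGANTCA and the TATA element TATAAA.
Ccl20 promoter, chr9:91836909-91837208, plus strand: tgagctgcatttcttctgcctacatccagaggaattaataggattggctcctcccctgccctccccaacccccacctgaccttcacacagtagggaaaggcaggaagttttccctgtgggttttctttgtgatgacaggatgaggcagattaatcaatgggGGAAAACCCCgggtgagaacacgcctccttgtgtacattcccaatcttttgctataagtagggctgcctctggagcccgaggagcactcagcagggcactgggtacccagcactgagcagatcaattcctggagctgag
Ccl7 promoter, chr10:67513845-67514144, plus strand: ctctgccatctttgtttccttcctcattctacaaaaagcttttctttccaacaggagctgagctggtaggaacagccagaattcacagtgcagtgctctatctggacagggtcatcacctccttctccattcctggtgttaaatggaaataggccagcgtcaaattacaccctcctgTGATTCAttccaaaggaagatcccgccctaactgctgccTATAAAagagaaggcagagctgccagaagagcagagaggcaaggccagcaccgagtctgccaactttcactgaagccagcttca
Cx3cl1 promoter, chr19:10242771-10243070, minus strand: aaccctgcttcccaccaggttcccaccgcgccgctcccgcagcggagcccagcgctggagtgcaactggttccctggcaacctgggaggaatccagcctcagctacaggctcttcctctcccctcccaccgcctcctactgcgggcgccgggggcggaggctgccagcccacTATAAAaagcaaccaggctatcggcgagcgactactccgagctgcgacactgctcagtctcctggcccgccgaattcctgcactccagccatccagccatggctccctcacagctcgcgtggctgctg
The Ccl20 window held 1 NF-κB match, read on the opposite strand, with 79 bases between it and the start. Of all 33469 promoter windows, 4.18% held an NF-κB match. The Ccl7 window held 1 AP-1 match, whose pattern is the same on both strands, 66 bases before the start, and 7.33% of all windows held one. TATAAA lay 28 bases before the start in Ccl7 and 72 bases before it in Cx3cl1, and 14.2% of all windows held it. None of the matches overlapped another. A match describes the letters of the window and is not a bound site.

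The monocyte attractant Ccl2 was the most abundant of the 5 genes in every library. It stood at 1770.45, 1798 and 2048 FPKM in co-culture, at 4294, 3882 and 3919 FPKM with IL-1β alone, and at 374, 382 and 382 FPKM in control. The 3 groups did not overlap, and co-culture lay between the others. Among all 11732 tested genes such separation was common: every co-culture library lay below every IL-1β library in 16.5% and above every control library in 29.6%, and every IL-1β library lay above every control library in 31.3%. Ccl7 stood at 646, 612 and 743 FPKM in co-culture, at 1442, 1286 and 1286 FPKM with IL-1β, and at 154, 158 and 166 FPKM in control. Its groups had the same order and did not overlap either. Unstimulated chondrocytes thus already held both monocyte attractants, at no less than 153.61 FPKM.

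Ccl20, which draws Ccr6-bearing lymphocytes and dendritic cells, was close to undetected without IL-1β. It stood at 50.4, 46.55 and 66.4 FPKM in co-culture, at 300.6, 270.3 and 269 FPKM with IL-1β, and at 0.73, 0.93 and 0.4 FPKM in control. Fractalkine (Cx3cl1) stood at 6.62, 4.89 and 7.17 FPKM in co-culture, at 33.9, 34.6 and 33.9 FPKM with IL-1β, and at 0.54, 0.36 and 0.4 FPKM in control. For both genes every IL-1β library was above every co-culture library, and every co-culture library above every control library. Both passed the filter through the IL-1β and co-culture groups only, since no control library reached 1 FPKM.

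Ccl5, the T cell and monocyte attractant, was listed at 0, 0.53 and 0.77 FPKM in co-culture, at 0.76, 0 and 0.49 FPKM with IL-1β, and at 0 in all 3 control libraries. The co-culture and IL-1β libraries overlapped, and against the 0 of control a fold has no meaning. A 0 in this table can also be a failed estimate.

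**Figure D1:**
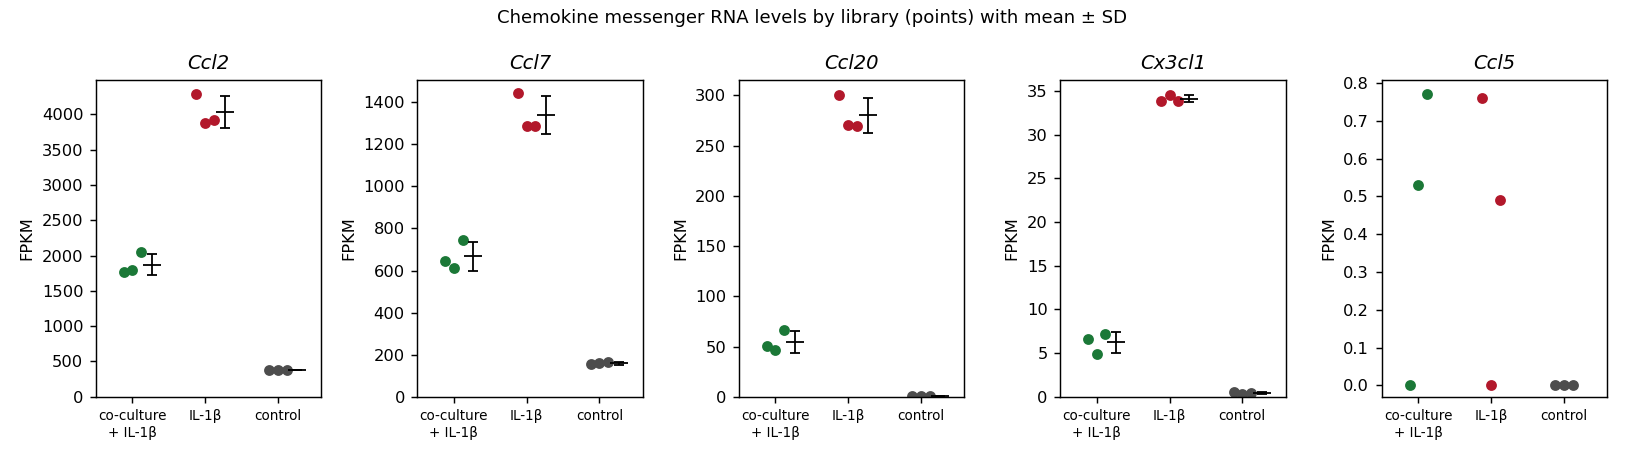
FPKM of the 5 genes on linear axes, 1 point per library, for co-culture with IL-1β (left), IL-1β alone (middle) and control (right), with the mean ± SD of 3 libraries beside the points except for Ccl5. In Ccl2, Ccl7, Ccl20 and Cx3cl1 the groups do not overlap and co-culture lies between IL-1β and control, whereas all Ccl5 values are at or under 0.77 FPKM.

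The order of the levels with IL-1β was Ccl2, Ccl7, Ccl20, Cx3cl1 and Ccl5, with means of 4032 ± 228, 1338 ± 90.3, 280.0 ± 17.9 and 34.1 ± 0.393 FPKM for the first 4 (SD, n = 3). Neighbours in this order did not overlap. The same order held in co-culture, with means of 1872 ± 153, 667 ± 68.1, 54.5 ± 10.5 and 6.23 ± 1.19 FPKM (SD, n = 3). In control Ccl2 and Ccl7 averaged 379 ± 4.28 and 159 ± 6.25 FPKM (SD, n = 3). Ccl20 and Cx3cl1 overlapped there, at 0.687 ± 0.268 and 0.433 ± 0.0945 FPKM (SD, n = 3), and could not be ordered.

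In co-culture against IL-1β the 4 tested genes fell. The IL-1β group was in normal culture by label, so the fibroblasts, the transwell format and the timing cannot be told apart. Ccl20 and Cx3cl1 fell most, to mean FPKM 5.14-fold and 5.48-fold lower in co-culture than with IL-1β. Ccl2 was 2.15-fold lower and Ccl7 2.01-fold lower. The test was limma on log2(FPKM + 1) over 11732 genes with Benjamini-Hochberg adjustment, called at an adjusted p of 0.05. Ccl20 fell by 2.36 on this log2 scale (SE 0.138, limma adjusted p = 2.78e-06) and Cx3cl1 fell by 2.29 (SE 0.108, adjusted p = 7.57e-07). Ccl2 fell by 1.11 (SE 0.0564, adjusted p = 1.345e-06) and Ccl7 fell by 1.01 (SE 0.0705, adjusted p = 8.25e-06). Among the 11732 genes, ordered from the largest fall, Ccl20 ranked 8, Cx3cl1 10, Ccl2 74 and Ccl7 102. The 4 tested genes were called lower, against 10.1% of all tested genes, while 11.9% were called higher.

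Among the co-culture libraries, replicate 3 had the highest value of each of the 5 genes. Without it the 4 falls were larger, with log2 changes of -2.50 for Ccl20, -2.39 for Cx3cl1, -1.17 for Ccl2 and -1.09 for Ccl7. Replicate 1 of the IL-1β group was the highest of its group for Ccl2, Ccl7 and Ccl20 and had the largest FPKM sum, and without it the log2 changes were -2.30 for Ccl20, -2.30 for Cx3cl1, -1.06 for Ccl2 and -0.95 for Ccl7. In co-culture the spread between libraries was wider for these genes than for the median gene. The coefficient of variation of Ccl20 was 19.3% in co-culture and 6.38% with IL-1β, and that of Cx3cl1 was 19.1% in co-culture and 1.15% with IL-1β, where the median over 8714 genes averaging at least 5 FPKM was 4.29% in co-culture and 3.75% with IL-1β. For Ccl2 it was 8.17% in co-culture and 5.65% with IL-1β. Scaling the libraries to equal totals brought Ccl2 with IL-1β to 4125, 3898 and 3880 and its coefficient of variation to 3.44%, with replicate 1 still highest. In libraries of bulk cells, fewer cells making a message and less message per cell cannot be told apart.

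The response to the cytokine itself was read from IL-1β against control, where the 4 tested genes rose. Mean Ccl20 was 408-fold higher with IL-1β than in control and mean Cx3cl1 78.7-fold higher, both over control levels under 1 FPKM. Ccl2 was 10.6-fold higher and Ccl7 8.40-fold higher. The log2 changes of FPKM + 1 were 7.39 for Ccl20 (SE 0.138, limma adjusted p = 9.72e-11) and 4.62 for Cx3cl1 (SE 0.107, adjusted p = 3.795e-10). Those of Ccl2 and Ccl7 were 3.40 (SE 0.0564, adjusted p = 4.02e-11) and 3.06 (SE 0.0705, adjusted p = 3.585e-10). Ccl20 had the third largest rise of the 11732 genes, while Cx3cl1 ranked 24, Ccl2 45 and Ccl7 55. Ccl20 and Cx3cl1 passed the filter only through the IL-1β-treated groups. The filter thus favoured a difference from control, and their calls and ranks against control are a description only. Of all tested genes 26.5% were called higher and 20.2% lower. With libraries scaled to equal totals the split turned to 2249 higher and 3188 lower, while the 4 genes were still called higher. The pseudocount of 1 lowered the change of the 2 genes that were low in control: with 0.1 in its place, the log2 change was 8.54 for Ccl20 and 6.02 for Cx3cl1.

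Co-culture with IL-1β was also set against control. With no co-culture group lacking IL-1β, this difference cannot be split between the cytokine, the co-culture and the timing. Mean Ccl20 was 79.3-fold, Cx3cl1 14.4-fold, Ccl2 4.93-fold and Ccl7 4.19-fold higher in co-culture than in control. The log2 changes were 5.04 for Ccl20 (SE 0.138, limma adjusted p = 3.67e-09), 2.32 for Cx3cl1 (SE 0.107, adjusted p = 1.46e-07), 2.30 for Ccl2 (SE 0.0564, adjusted p = 1.70e-09) and 2.05 for Ccl7 (SE 0.0705, adjusted p = 1.65e-08). With a pseudocount of 0.1 they were 6.16 for Ccl20, 3.57 for Cx3cl1, 2.30 for Ccl2 and 2.06 for Ccl7, so the closeness of Cx3cl1 to Ccl2 rests on the pseudocount of 1. Of all tested genes 21.8% were called higher. Here too the calls of Ccl20 and Cx3cl1 are a description, since both passed the filter only through the IL-1β-treated groups. Expressed in FPKM, co-culture libraries stood above mean control by 38.1% to 45.7% of the rise with IL-1β in mean Ccl2. For Ccl7 they did so by 38.4% to 49.5%. The share was 16.4% to 23.5% for Ccl20 and 13.2% to 20.0% for Cx3cl1. These shares use the same IL-1β and control libraries as the comparisons above and are a description. They depend on the scale. In log2 change against control, Ccl20 stood at 5.04 in co-culture of the 7.39 with IL-1β. Ccl2 stood at 2.30 of 3.40, Ccl7 at 2.05 of 3.06 and Cx3cl1 at 2.32 of 4.62. With a pseudocount of 0.1, Ccl20 stood at 6.16 of 8.54 and Cx3cl1 at 3.57 of 6.02.

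**Figure D2:**
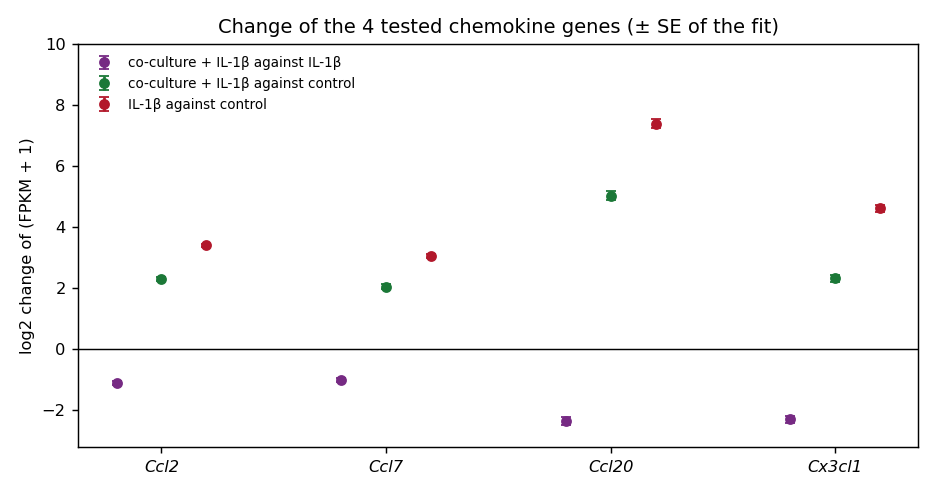
Log2 change of FPKM + 1 (vertical axis) of the 4 tested genes in 3 comparisons (co-culture against IL-1β, co-culture against control, IL-1β against control), with the SE of the fit (9 libraries). Each gene was lower in co-culture than with IL-1β and higher in both IL-1β-treated groups than in control, and the falls of Ccl20 (-2.36) and Cx3cl1 (-2.29) were larger than those of Ccl2 (-1.11) and Ccl7 (-1.01).

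The sizes of the changes were compared between genes. For each of the 10 pairs of the 5 genes, the difference in log2(FPKM + 1) between the 2 genes was taken in each library and compared between groups with a two-sided exact permutation test. With 3 libraries against 3 the smallest exact permutation p is 0.1, so no pair could pass 0.05. In co-culture against IL-1β, the fall of Ccl20 exceeded that of Ccl2 by 1.25 (SE 0.0917) and that of Ccl7 by 1.35 (SE 0.0693) on the log2 scale. The fall of Cx3cl1 exceeded that of Ccl2 by 1.19 (SE 0.128) and that of Ccl7 by 1.29 (SE 0.105). In all 4 cases the groups did not overlap (exact permutation p = 0.1, the smallest possible, adjusted p = 0.111 over 10 pairs). Ccl2 fell by 0.10 more than Ccl7 (SE 0.0339), also without overlap (exact permutation p = 0.1, adjusted p = 0.111). Ccl20 and Cx3cl1 overlapped, with a difference of -0.06 (SE 0.108, exact permutation p = 0.7). In IL-1β against control none of the 6 pairs among the tested genes overlapped. There Ccl20 rose by 2.78 more than Cx3cl1 (SE 0.159), and Ccl2 rose by 0.34 more than Ccl7 (SE 0.0273), each with exact permutation p = 0.1. How often other pairs of tested genes separate was not counted, so the lack of overlap is a description.

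The makeup of the summed message is given as a description. The 5 genes together gave 2474, 2462 and 2865 FPKM in co-culture libraries, 6072, 5473 and 5508 FPKM in IL-1β libraries, and 529, 542 and 549 FPKM in control libraries. Ccl2 made up 71.5% to 73.1% of the sum in co-culture, 70.7% to 71.2% with IL-1β and 69.6% to 70.7% in control, so its share stayed between 69.6% and 73.1% while its level differed 10.6-fold between IL-1β and control. Ccl20 made up 1.89% to 2.32% in co-culture, 4.89% to 4.95% with IL-1β and 0.0729% to 0.172% in control. Cx3cl1 made up 0.199% to 0.268% in co-culture, 0.558% to 0.631% with IL-1β and 0.0665% to 0.102% in control. Neither share overlapped between groups. Ccl7 took 24.8% to 26.1% in co-culture, 23.3% to 23.8% with IL-1β and 29.02% to 30.25% in control. The ratio of Ccl2 to Ccl7 was 2.74 to 2.94 in co-culture, 2.98 to 3.05 with IL-1β and 2.30 to 2.44 in control. None of these 3 groups of ratios overlapped.

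**Figure D3:**
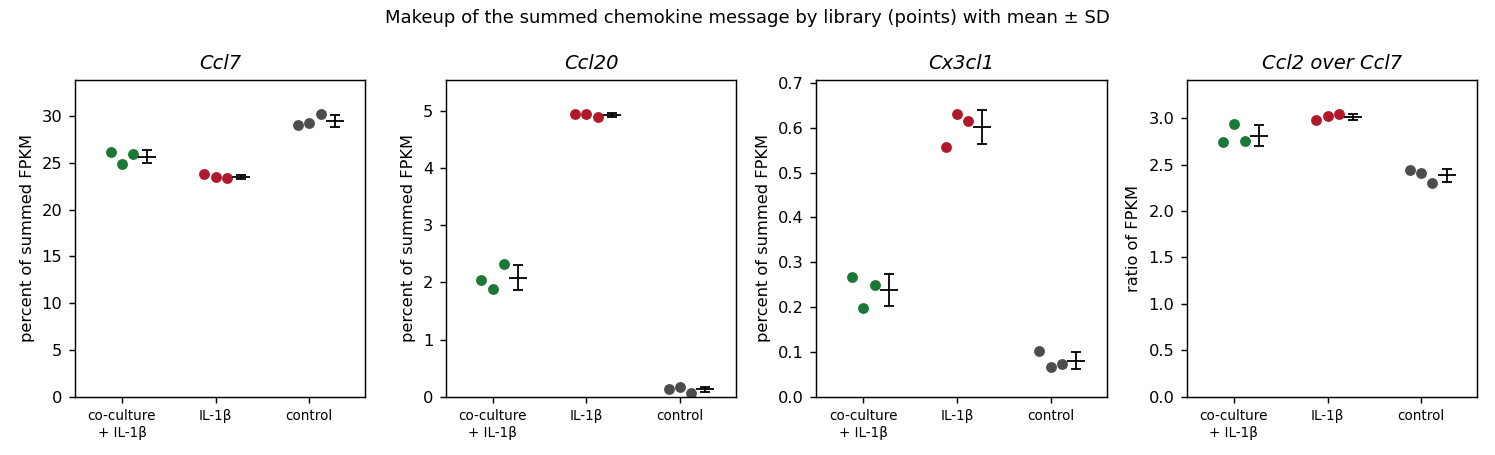
Share of Ccl7, Ccl20 and Cx3cl1 in the summed FPKM of the 5 genes (percent) and the ratio of Ccl2 to Ccl7 FPKM, 1 point per library, for co-culture with IL-1β (left), IL-1β (middle) and control (right), with mean ± SD of 3 libraries. The Ccl20 share is 1.89% to 2.32% in co-culture and 4.89% to 4.95% with IL-1β, and the ratio of Ccl2 to Ccl7 is lowest in control.

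Profiles most like each gene were found by the root-mean-square distance between log2(FPKM + 1) values centred over the 9 libraries, where a smaller value is closer. Nearest to Ccl2 were Ptgs2, which encodes cyclooxygenase-2 (distance 0.106), the pattern recognition protein gene Ptx3 (0.136) and the lipopolysaccharide-binding protein gene Lbp (0.138). Nearest to Ccl7 were the proteoglycan gene Lum (0.0550), the macrophage elastase gene Mmp12 (0.0625) and Upp1, encoding uridine phosphorylase (0.0656). The other monocyte attractant was farther from each than these, since Ccl2 and Ccl7 lay 0.148 apart. Ccl20 was closest to the neutrophil chemokine genes Cxcl3 (0.139) and Cxcl2 (0.483), then to the acute-phase gene Lcn2 (0.523). Cx3cl1 was closest to the collagenase gene Mmp13 (0.193), then to LOC103689974 (0.269) and the cytokine gene Lif (0.280). Within 1 log2 unit there were 576 genes for Ccl7, 292 for Ccl2, 80 for Cx3cl1 and 15 for Ccl20. The 9 points are 3 groups, so these distances mainly compare group means.

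Of 16 other CC and XC chemokines looked for, 8 were in the table and 6 were tested. None of the 6 exceeded 14.1 FPKM in any library. With IL-1β against control 5 rose and 0 fell (median log2 change 1.72, against 0.02 over all tested genes), where 26.5% of all were called higher and 20.2% lower. Each of the 5 (Ccl3, Ccl4, Ccl6, Ccl12 and Ccl22) was under 1 FPKM in most control libraries and passed the filter through the IL-1β-treated groups. The calls and the median against control are thus a description. In co-culture against IL-1β 0 rose and 2, Ccl3 and Ccl22, fell (median -0.36, against 0.02), where 11.9% of all were called higher and 10.1% lower. The macrophage inflammatory protein gene Ccl3 stood at 2.82, 3.07 and 4.06 FPKM in co-culture, at 9.26, 10.05 and 9.41 FPKM with IL-1β, and at 0.88, 0.87 and 1.17 FPKM in control. Its groups did not overlap, and it fell by 1.30 in co-culture against IL-1β (limma adjusted p = 2.39e-05). Ccl22, which attracts Ccr4-bearing T cells, stood at 0.37, 0.28 and 0.14 FPKM in co-culture and at 2.18, 1.89 and 1.76 FPKM with IL-1β, a log2 change of -1.22 (limma adjusted p = 2.41e-05). In control it was listed at 0.05, 0 and 0 FPKM. It passed the filter through the IL-1β group only, the group where it is high, so it had to differ and its call supports nothing.

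The remaining chemokines that rose with IL-1β, Ccl4, Ccl6 and Ccl12, did not pass in co-culture against IL-1β. Ccl12, a rodent monocyte attractant, stood at 5.37, 2.69 and 6.37 FPKM in co-culture, at 5.94, 6.77 and 4.69 FPKM with IL-1β, and at 1.4, 0.55 and 0.56 FPKM in control. Ccl6 stood at 8.2, 4.64 and 13.2 FPKM in co-culture, at 13.8, 5.73 and 14.1 FPKM with IL-1β, and at 2.07, 0 and 0 FPKM in control. Their libraries spread widely within each group, and the log2 changes were -0.27 (SE 0.257, limma adjusted p = 0.496) for Ccl12 and -0.34 (SE 0.495, limma adjusted p = 0.676) for Ccl6. Ccl27 passed in neither comparison.

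Among 5 atypical receptors, which bind chemokines without the usual signal, 2 of 4 in the table were tested. The CXC-binding scavenger Ackr3 stood at 33.4, 33.5 and 34.5 FPKM in co-culture, at 39.5, 39.7 and 43.2 FPKM with IL-1β, and at 18.1, 18.7 and 17.5 FPKM in control. It fell by 0.26 in co-culture against IL-1β (limma adjusted p = 0.00195) after a rise of 1.13 with IL-1β against control (limma adjusted p = 1.44e-08). Ackr4, a scavenger of Ccl19, Ccl21 and Ccl25, passed in neither comparison.

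Of the 12 proteases and cofactors that shed fractalkine or clip chemokines, 10 were tested. With IL-1β against control 9 rose and 1, Mmp14, fell (median log2 change 1.22), where 26.5% of all tested genes were called higher and 20.2% lower. Among the 9, Mmp9 was under 1 FPKM in every control library. It passed the filter only through the IL-1β-treated groups, so its call against control is a description. In co-culture against IL-1β 8 fell and 1, Mmp14, rose (median -0.35), where 11.9% of all were called higher and 10.1% lower. Adam17, a sheddase of fractalkine, averaged 49.7 FPKM in co-culture, 62.4 FPKM with IL-1β and 34.2 FPKM in control, and fell by 0.33 in co-culture against IL-1β (limma adjusted p = 0.00128). Adam10, the other sheddase, averaged 24.8 FPKM in co-culture and 25.4 FPKM with IL-1β, a log2 change of -0.04 (SE 0.066, limma adjusted p = 0.733). The stromelysin gene Mmp3 fell by 1.04 (limma adjusted p = 2.78e-06) and the gelatinase gene Mmp9 by 1.67 (limma adjusted p = 2.31e-07) in that comparison.

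Transcription factors known to act on chemokine promoters, with their inhibitors, were read next. Of 16 tested, 12 rose and 2, Jun and Fos, fell with IL-1β against control (median 0.36), where 26.5% of all tested genes were called higher and 20.2% lower. In co-culture against IL-1β 10 fell and 2, again Jun and Fos, rose (median -0.21), where 11.9% of all were called higher and 10.1% lower. The 2 rises in co-culture are near the share of all genes. Without IL-1β replicate 3, co-culture replicate 1 or co-culture replicate 3, only 1 of these 2 rises was called. Nfkbia, the NF-κB inhibitor, averaged 53.2 FPKM in co-culture, 110.0 FPKM with IL-1β and 12.4 FPKM in control. Its log2 change of -1.04 in co-culture against IL-1β (limma adjusted p = 7.45e-06) lay near that of Ccl7. Nfkbiz, a nuclear cofactor of NF-κB, fell by 0.76 (limma adjusted p = 2.92e-06) and Nfkb1, the p50 precursor gene, by 0.50 (limma adjusted p = 5.34e-06). Of 11 tested genes of the IL-1 receptor pathway, 6 rose and 0 fell with IL-1β, and 4 (Il1r1, Il1rn, Irak3 and Ikbkb) fell in co-culture against IL-1β. The shares of all tested genes given above stand beside these counts too. The call of the receptor Il1r1 was lost without IL-1β replicate 3 (log2 change -0.15, limma adjusted p = 0.0602). Irak3, an inhibitor of the pathway, averaged 31.4 FPKM in co-culture, 57.3 FPKM with IL-1β and 10.3 FPKM in control. The receptor antagonist Il1rn averaged 4.57 FPKM in co-culture, 7.46 FPKM with IL-1β and 5.48 FPKM in control.

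Among 8 tested regulators of chemokine message decay, 4 rose (Zfp36l1, Zc3h12a, N4bp1 and Khsrp) and 2 fell (Zfp36 and Hnrnpd) with IL-1β against control. In co-culture against IL-1β 1 rose (Hnrnpd) and 3 fell (Zfp36l1, Zc3h12a and N4bp1). Over all tested genes, 26.5% were called higher and 20.2% lower with IL-1β, and 11.9% higher and 10.1% lower in co-culture against IL-1β. The 2 falls with IL-1β and the 1 rise in co-culture are near these shares. The call of Hnrnpd with IL-1β, a log2 change of -0.08, was lost without IL-1β replicate 2 or 3 or control replicate 1, 2 or 3, with the replicate block (limma adjusted p = 0.0673), with no trend and with only the 6 libraries compared. Zc3h12a, the RNase Regnase-1, averaged 45.1 FPKM in co-culture, 84.8 FPKM with IL-1β and 7.51 FPKM in control, and fell by 0.90 in co-culture against IL-1β (limma adjusted p = 4.99e-05). Zfp36, encoding tristetraprolin, averaged 22.6 FPKM in co-culture, 22.3 FPKM with IL-1β and 29.5 FPKM in control. Of the 12 heparan sulfate carriers and enzymes, whose chains hold chemokines at the cell surface, 3 rose and 7 fell with IL-1β (median -0.16). In co-culture against IL-1β 4 rose (Sdc1, Sdc2, Sdc3 and Gpc1) and 1 fell (Sdc4) (median 0.09). The 3 rises with IL-1β and the 1 fall in co-culture are near the shares of all tested genes given above. With equal totals 2 rose and 8 fell with IL-1β. The call of Sdc4 in co-culture was lost without IL-1β replicate 1, 2 or 3, co-culture replicate 3 or control replicate 2 or 3, and with the replicate block, no filter, no trend or only the 6 libraries compared. That of Gpc1 was lost without IL-1β replicate 2. Syndecan-2 (Sdc2) averaged 104 FPKM in co-culture, 85.8 FPKM with IL-1β and 165 FPKM in control, and rose by 0.28 in co-culture against IL-1β (limma adjusted p = 0.000167).

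**Figure D4:**
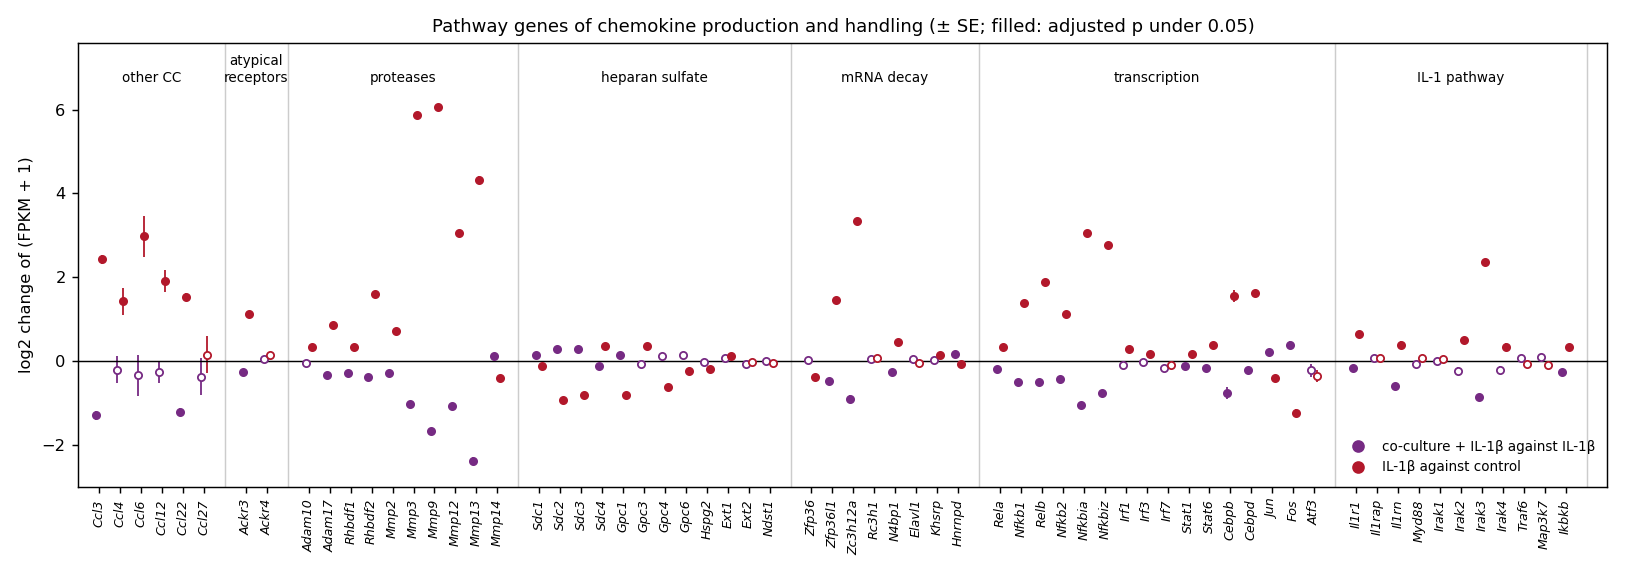
Log2 change of FPKM + 1 (vertical axis, ± SE) of the tested genes of 7 lists, grouped by role, in co-culture against IL-1β and in IL-1β against control. Filled points passed an adjusted p of 0.05 in limma and open points did not. Mmp9 (6.06) and Mmp3 (5.88) rose most with IL-1β, and Mmp13 (-2.38) fell most in co-culture against IL-1β. Mmp9 was under 1 FPKM in every control library and passed the filter only through the IL-1β-treated groups, so its rise is a description.

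Monocytes and macrophages are themselves a source of these chemokines, so markers of other cells were read in the same libraries. The 13 macrophage markers summed to between 25.8 and 26.9 FPKM in co-culture, 27.6 and 29.9 FPKM with IL-1β, and 30.0 and 33.0 FPKM in control. None was at 0 in all libraries. The highest was Cd14, at 13.7 to 14.1 FPKM in co-culture, 14.8 to 16.6 FPKM with IL-1β and 11.7 to 12.3 FPKM in control. Lyz2 stood at 2.04 to 2.99 FPKM in co-culture, 1.9 to 2.0 FPKM with IL-1β and 8.31 to 9.95 FPKM in control, and Cd68 at 2.51 to 2.85 FPKM in co-culture, 3.54 to 3.88 FPKM with IL-1β and 1.89 to 2.12 FPKM in control. The pan-leukocyte gene Ptprc did not exceed 0.1 FPKM and the receptor gene Csf1r did not exceed 0.42 FPKM. Of 7 tested macrophage markers, 2 rose (Cd68 and Cd14) and 2 fell (Lyz2 and Laptm5) with IL-1β, and Cd68 and Cd14 fell in co-culture against IL-1β. With IL-1β these shares are near those of all tested genes, of which 26.5% were called higher and 20.2% lower. In co-culture against IL-1β 11.9% of all were called higher and 10.1% lower. The call of Laptm5 was lost on leaving out any 1 of the IL-1β or control libraries, at log2 changes of -0.37 to -0.32. Laptm5 was under 1 FPKM in every IL-1β library and passed the filter through the other groups, so that call is a description. The Cd14 call ended without IL-1β replicate 1 or 2 or co-culture replicate 1 or 2, at log2 changes of -0.18 to -0.16. The 6 lymphocyte markers in the table did not exceed 0.59 FPKM, nor did 8 of the 10 endothelial markers. The other endothelial markers were Egfl7, at 7.63 to 8.57 FPKM in co-culture, 8.0 to 8.49 FPKM with IL-1β and 9.25 to 10.09 FPKM in control, and Erg, at 0.77 to 1.03 FPKM in co-culture, 0.47 to 0.69 FPKM with IL-1β and 2.65 to 3.12 FPKM in control. Of the 6 keratinocyte markers, 5 did not exceed 0.16 FPKM, and Krt10 stood at 1.28 to 2.27 FPKM in co-culture, 1.13 to 1.58 FPKM with IL-1β and 1.34 to 1.8 FPKM in control.

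Dermal fibroblast markers moved in both directions. The 14 markers summed to between 1130 and 1229 FPKM in co-culture, 1721 and 1779 FPKM with IL-1β, and 805 and 813 FPKM in control. Of 9 tested, 5 rose and 3 (Dpt, Mfap5 and Col6a3) fell with IL-1β, where 26.5% of all tested genes were called higher and 20.2% lower. In co-culture against IL-1β 1 (Col6a3) rose and 4 (Thy1, Dcn, Lum and Prrx1) fell, where 11.9% of all were called higher and 10.1% lower. Leaving out 1 library, other than co-culture replicate 1 or control replicate 2, brought the 4 falls to 3, as did the replicate block, no filter, no trend and only the 6 libraries compared. Lum averaged 359 FPKM in co-culture, against 764.5 FPKM with IL-1β. Dpp4, Pi16, Cd34, Entpd1 and Clec3b, markers of upper and adventitial dermal fibroblasts, did not pass the filter, with a highest value of 1.31 FPKM. The 8 skeletal muscle markers summed to between 366 and 410 FPKM in co-culture, 378 and 395 FPKM with IL-1β, and 169 and 176 FPKM in control. All 8 were called higher with IL-1β against control (median log2 change 0.90, against 26.5% of all tested genes). The 8 were also called higher in co-culture against control (median 0.91, against 21.8%). Among them, Ckm was under 1 FPKM in every control library. It passed the filter only through the IL-1β-treated groups, so its calls against control are a description. In co-culture against IL-1β 1 (Acta1) was called lower, where 10.1% of all tested genes were, and that call was lost in some alternatives. The part of these cells in the chemokine values was not tested.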

How the data were processed

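The authors deposited a single FPKM table with 17588 rows and a column for each of the 9 libraries, per the file headers, its values written to 2 decimals. The submitters' processing notes name GRCm38, which is a mouse build, for samples labelled as rat. RefSeq's rat GRCr8 table holds 93.2% of the table's gene identifiers. The build behind the alignment is therefore unsettled, and no aligner or counter was given in the sources used here. Per the labels' protocols, messenger RNA was enriched on oligo(dT) beads before random-primed reverse transcription, and whether strand was kept is not said.

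The table holds no counts. Low values placed what 1 read is worth at 0.981 to 1.0 of that in control replicate 1, a rough estimate at 2 decimals. Only ratios near 1 were kept before the median was taken. The estimate therefore could not show a large difference in depth, and equal depth cannot be read from it. No count test was run. Groups were read from the sample titles. Genes with at least 1 FPKM in at least 3 libraries (11732) were tested on log2(FPKM + 1) with limma 3.58.1 in R 4.3.3, fitted to the 9 libraries together with a trend of variance on mean level, two-sided and adjusted by Benjamini-Hochberg within each of 3 comparisons. Folds beside FPKM are ratios of group means. Signalling chemokine receptors are not reported here.

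The members and lists were chosen with earlier results of these data known. Named genes are the members, up to 4 genes per list with the smallest p in the co-culture and in the IL-1β comparison, the 3 closest profiles per member and neighbouring genes, besides genes in counts of 5 or fewer and some further list genes (Adam10, Adam17, Ccl4, Ptprc, Csf1r) chosen after their values were seen. Alternatives were pseudocounts of 0.1 and 0.5, no filter and a mean of at least 5 FPKM, 3 other scalings, no trend, only the 6 libraries compared, a replicate block and leaving out each library. Figures were drawn with matplotlib 3.10.9.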

Additional observations from a re-analysis of the deposited data

How the results depend on the processing

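In each of the 19 alternatives per comparison, Ccl2, Ccl7, Ccl20 and Cx3cl1 were called in the reported direction, with limma adjusted p up to 0.000107. For Ccl20 and Cx3cl1 against control these calls are a description, given how both passed the filter. In co-culture against IL-1β their log2 changes ranged from -2.50 to -2.25 for Ccl20, -2.45 to -2.15 for Cx3cl1, -1.17 to -1.06 for Ccl2 and -1.09 to -0.95 for Ccl7. Among pairs of genes, the count without overlap between groups in co-culture against IL-1β was 9 of 10, and 5 of 10 with a pseudocount of 0.1, where 5 of the 6 pairs among the tested genes still had none. The other pairs contain Ccl5, which did not pass the filter, and no share over pairs of all tested genes was taken. With a pseudocount of 0.1 the log2 changes against control of Ccl20 and Cx3cl1 were 6.16 and 3.57 in co-culture and 8.54 and 6.02 with IL-1β. In co-culture against IL-1β, the difference between the log2 changes of Ccl20 and Cx3cl1 turned to 0.0777 with this pseudocount. It ranged from -0.115 to 0.0295 when 1 library was left out, positive without co-culture replicate 1. Scaling moved the split of all called genes. IL-1β against control gave 3109 higher and 2370 lower, but 2249 and 3188 after scaling libraries to equal totals, 2723 and 2732 with median-of-ratios scaling, and 2312 and 3325 with quantile normalization. Co-culture against control gave 2554 higher and 1427 lower, but 1541 and 2009, 1854 and 1869, and 1694 and 2073 under these scalings. No called gene of the lists turned direction in any alternative. Over the other genes named by rule and all alternatives, a call was unchanged 3491 times, lost 48 times and gained 16 times. Ccl22, called higher in co-culture against control (log2 change 0.31), lost that call with only the 6 libraries compared and without any 1 of control replicates 1, 2 or 3, co-culture replicates 1 or 2 or IL-1β replicate 2 (0.25 to 0.33).

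With the replicate number as a block, limma called 5201 genes with IL-1β against control, 2266 in co-culture against IL-1β and 3681 in co-culture against control, compared with 5479, 2581 and 3981 without it. The labels give only a shared number, and whether same-numbered libraries belong together is not settled. Deviations of same-numbered libraries correlated between -0.0907 and 0.0855, and those of differently numbered libraries between -0.077 and 0.089. Of the 9 libraries, 5 correlated best with their own number.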

Other observations

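Genes next to the chemokines on the RefSeq rat assembly GRCr8 were measured where the table holds them. Ccl2 and Ccl7 are direct neighbours. Beside Ccl5 lie Heatr9, which did not exceed 0.03 FPKM, and the chemokine gene Ccl9, which stayed between 0.14 and 0.46 FPKM. Daw1, beside Ccl20, did not exceed 0.53 FPKM in any library, including those with IL-1β in which Ccl20 was above 269 FPKM.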
